A study of Mus musculus with 24 samples.

Results

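The cadherins and protocadherins were described here in the brains of Ts1Cje and 2N mice. Members were the probe sets whose single gene symbol in the platform annotation was a Cdh gene with a number or any Pcdh gene. They made up 40 of the 24833 probe sets on 2 Affymetrix array designs, MGU74A (array A, 20 members) and MGU74B (array B, 20 members), and covered 23 genes. A further 8 probe sets on array A named several clustered protocadherins at once and were kept apart.

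In Ts1Cje mice the distal segment of chromosome 16 is present in an additional copy, joined to the end of chromosome 12, and the segment's Sod1 copy is disrupted. They serve as a model of Down syndrome for the many orthologs of human chromosome 21 genes in that part, but lack extra copies of the rest of those orthologs. The 2N mice have the normal chromosome complement. Each genotype had 6 samples of total brain RNA on each array, and the labels give neither brain region, age, sex nor strain, and do not say that samples came from separate animals. The p-values are thus relative to the spread among these RNA samples, some of which can be technical.

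Cadherins are membrane proteins whose extracellular repeats bind calcium and hold neighbouring cells together. Classical cadherins bind their own kind on the next cell and are tied to actin through catenins, and in the brain they shape the neuroepithelium, sort neurons into nuclei and layers, and span synapses. Protocadherins form the largest branch of the family. The delta protocadherins are single genes with patchy expression in the brain, while the clustered alpha, beta and gamma genes lie in tandem and are chosen neuron by neuron, which gives neurons distinct surface identities.

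Promoters of 3 members are shown, 1 with the lowest CpG count among those read and 2 with higher counts. Each is the stretch of 250 bases before the start of the gene, from RefSeq (GRCm38.p6), on the strand of the gene from 5′ to 3′. CpG dinucleotides (motif CG, which reads the same on both strands) are in capitals. Pcdh19 and Pcdh17 had the smallest p-values on array B, and Cdh10 was measured on both. The regions are chrX:133688994-133689243 on the minus strand for Pcdh19, chr14:84443313-84443562 on the plus strand for Pcdh17 and chr15:18820079-18820328 on the plus strand for Cdh10.
Pcdh19: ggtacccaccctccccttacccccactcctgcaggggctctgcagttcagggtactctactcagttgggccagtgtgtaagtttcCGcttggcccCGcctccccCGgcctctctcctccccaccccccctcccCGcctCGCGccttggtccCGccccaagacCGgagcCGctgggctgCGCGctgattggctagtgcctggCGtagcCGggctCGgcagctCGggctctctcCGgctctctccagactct
Pcdh17: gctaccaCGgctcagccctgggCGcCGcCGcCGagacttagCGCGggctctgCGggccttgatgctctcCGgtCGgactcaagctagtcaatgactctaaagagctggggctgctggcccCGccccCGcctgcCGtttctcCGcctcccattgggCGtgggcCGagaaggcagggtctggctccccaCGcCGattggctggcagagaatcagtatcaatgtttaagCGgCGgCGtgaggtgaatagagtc
Cdh10: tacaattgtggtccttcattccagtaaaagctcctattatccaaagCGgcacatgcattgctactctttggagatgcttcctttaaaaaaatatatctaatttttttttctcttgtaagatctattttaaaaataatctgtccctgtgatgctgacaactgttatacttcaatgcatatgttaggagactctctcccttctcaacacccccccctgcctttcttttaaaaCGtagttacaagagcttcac
Pcdh19 held 16 CpG and Pcdh17 held 21, against 2 for Cdh10. Promoters were read for 10 of the 23 genes. Their CpG counts ran from 2 to 22 with a median of 11.5, and the median over all 27025 genes of the promoter table was 6. Counts of 22, 21, 18, 16 and 7 were found for Pcdh10, Pcdh17, Pcdh9, Pcdh19 and Pcdh7, and counts of 20, 6, 6, 5 and 2 for Cdh8, Cdh6, Cdh9, Cdh15 and Cdh10, so high counts occurred in both branches. At least 1 CpG was present in all 10 and in 91.7% of all genes.

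Values were intensities, normalised so that all arrays of a design shared one distribution. The level of a probe set reflects its own probes as well as the RNA, so levels are compared between samples and not between genes. Of the 40 members, 34 reached the intensity needed for the test and represent 21 genes. A probe set passed with a limma adjusted p under 0.05 over all tested probe sets of its array. Pan-neuronal and other markers were read as a check of the labelled tissue. The neuronal genes Tubb3 and Stmn2 were at percentiles 99.8 and 99.7 of the array A probe sets. Their intensities were 2804 ± 172 and 1894 ± 129 in Ts1Cje and 2673 ± 164 and 1839 ± 182 in 2N (SD, n = 6). Snap25, Map2 and Syt1 of the same list were lower on array A, at percentiles 95.7, 89 and 74.2. On array B Map2 and Syt1 were at 99.9 and 99.7, while Snap25, at 12.3, was too dim for the test. Syn1 had no probe set on either array. Lists of other cell types also held high and low markers on array A. Apoe and Gfap of the astrocyte list were at 99.1 and 62.9, and Ptgds and Lum of the meninges and fibroblast list at 98.9 and 41. Ttr and Kl of the choroid plexus list were at 94.7 and 2.4. Percentiles reflect the probes as well and do not rank the RNA of these genes.

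No probe set of a single cadherin or protocadherin gene passed the test between Ts1Cje and 2N brain. Of the 16 members tested on array A, 0 passed, where 0.0966% of all 9316 probe sets did, and of the 18 tested on array B, 0 passed, where 0.0645% of 9308 did (limma). At an unadjusted p under 0.05 the count was also 0 of 34, against 3.63% (array A) and 4.24% (array B) of all probe sets. Of the 7 tested probe sets naming several Pcdha genes, which are not among the 34, 2 were under 0.05 before adjustment and 0 passed. The 2 genotypes overlapped for all 34, while 0.301% of all probe sets on array A had no overlap (0.193% higher and 0.107% lower in Ts1Cje) and 0.247% on array B (0.193% higher and 0.0537% lower). The log2 difference, Ts1Cje minus 2N, was above 0 for 15 of the 34. Its median over the members was -0.06 on array A, beside -0.00424 over all tested probe sets. For array B these medians were 0.03 and -0.00346.

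The absence of a call does not show that the levels were equal, and the 95% intervals say how large a change could have been missed. All 34 intervals included 0. For 17 members the interval lay wholly within 1.5-fold in either direction, and for 25 within 2-fold. Brighter probe sets tended to be more precise. On array A the standard error ran from 0.0939 to 0.187 for the 4 members above the median intensity of the tested probe sets and from 0.187 to 0.651 for the 12 below it. On array B the 10 brighter members had a median standard error of 0.125 and the 8 dimmer ones 0.38. There the ranges overlapped, from 0.0958 to 0.482 for the brighter members and from 0.186 to 0.606 for the dimmer ones.

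**Figure D1:**
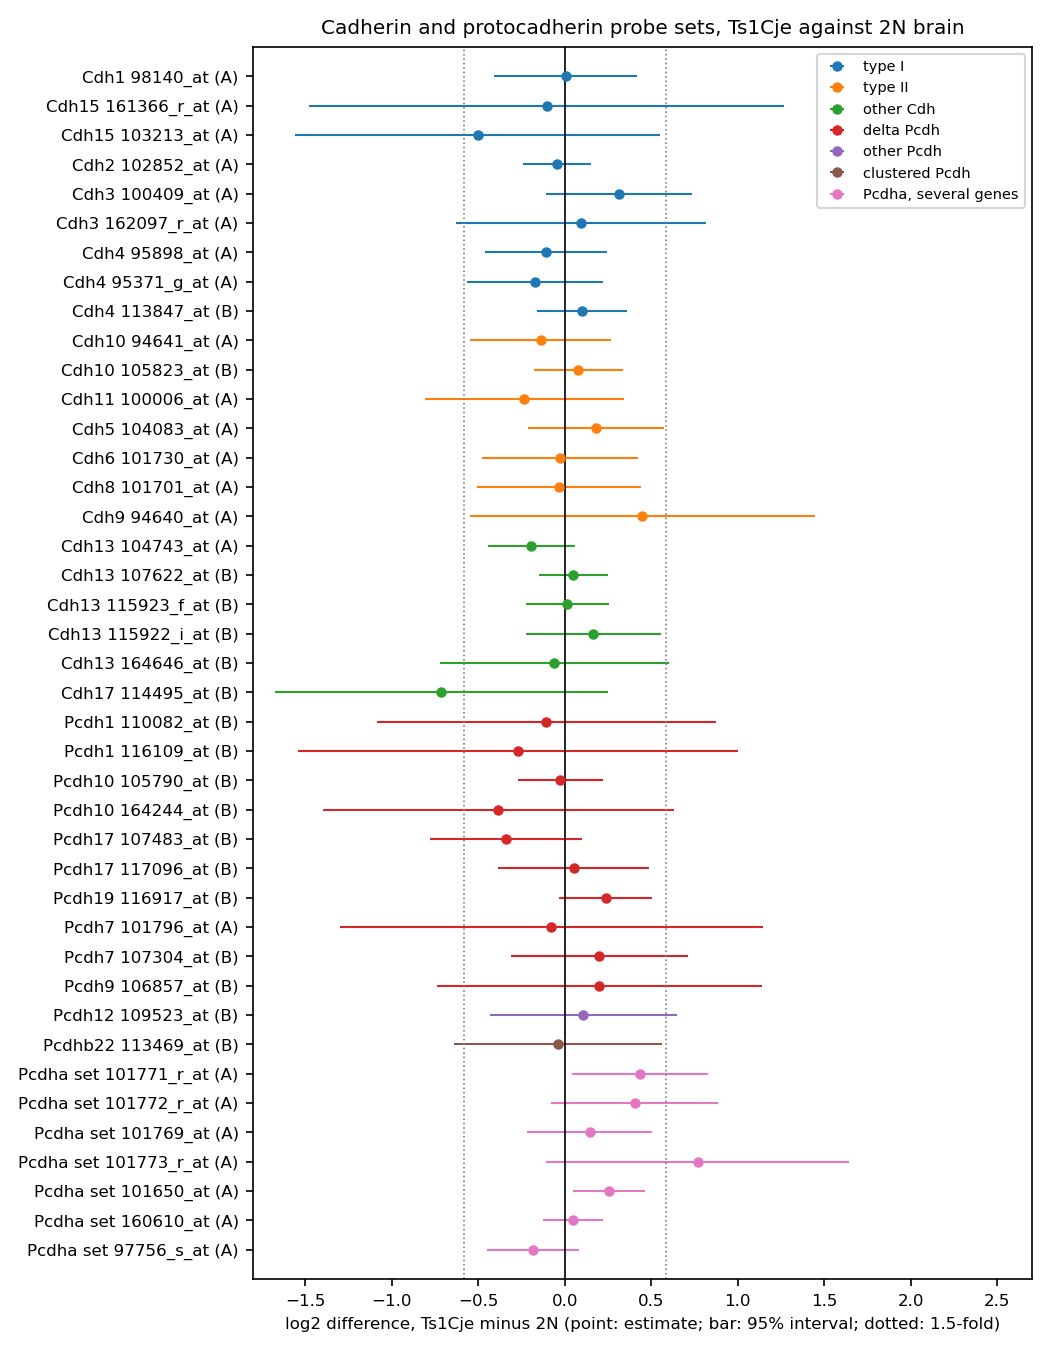
Log2 difference (Ts1Cje minus 2N, x axis) with its 95% interval for the 34 tested members and the 7 tested probe sets naming several Pcdha genes, one per line, with the array in parentheses and colours by family. The intervals of all 34 members cross 0, and those of 17 lie between the dotted lines at 1.5-fold.

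**Figure D2:**
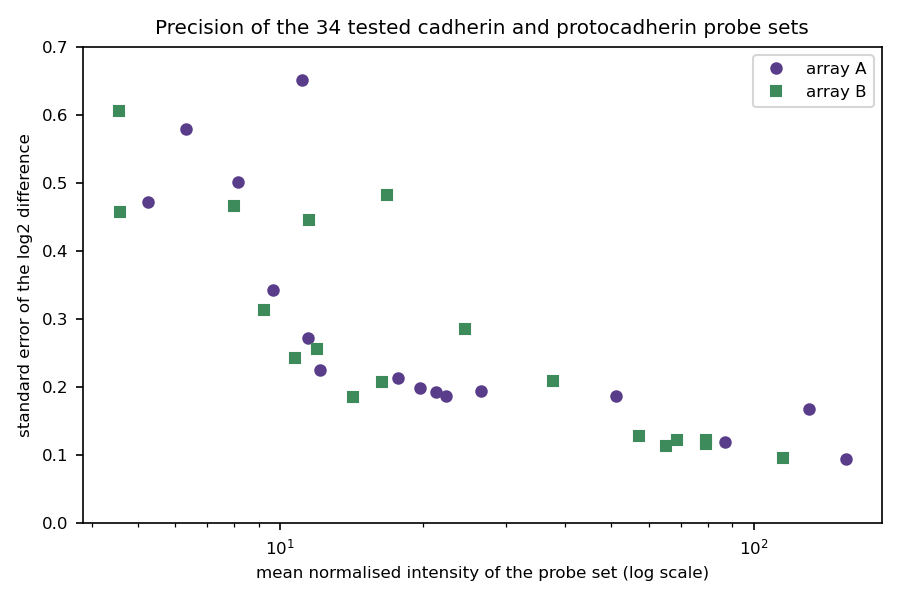
Standard error of the log2 difference (y axis) against the mean normalised intensity (x axis, log scale) for the 34 tested members, with circles for array A and squares for array B. Errors run from 0.0939 for the brightest member on array A to 0.651.

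The type I classical cadherins, which carry most adhesion in epithelia and early neural tissue, were measured with 8 tested probe sets of 5 genes on array A and 1 on array B. Cdh2, or N-cadherin, the main classical cadherin of the neuroepithelium and of synapses, had intensities from 124 to 175 with a median of 158 in Ts1Cje brains and from 140 to 172.5 with a median of 161 in 2N brains. The ranges lay almost on top of each other. The log2 difference was -0.04 (SE 0.0939, limma adjusted p = 0.99), with an interval from -0.24 to 0.15, the narrowest of the members on array A.

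Cdh4, or R-cadherin, known from the retina and forebrain, had 3 tested probe sets. The brightest, 95898_at on array A, ran from 87.0 to 172 with a median of 126 in Ts1Cje and from 99.1 to 191 with a median of 126 in 2N. The second on array A, 95371_g_at, ran from 28.5 to 63.9 (median 52.2) in Ts1Cje and from 43.2 to 66.9 (median 52.0) in 2N. The array B probe set ran from 65.7 to 112 (median 78.1) in Ts1Cje and from 62.0 to 84.5 (median 77.2) in 2N. The medians of the genotypes were close in all 3, and the log2 differences of -0.11, -0.17 and 0.10 had standard errors of 0.168, 0.187 and 0.123. The remaining Cdh4 probe set, 95370_at, was too dim for the test, with a mean of 0.847.

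Cdh1, or E-cadherin, the cadherin of epithelial junctions, ran from 20.5 to 33.1 (median 26.5) in Ts1Cje and from 17.2 to 38.1 (median 26.4) in 2N, with a log2 difference of 0.0046 (SE 0.195). The epithelial markers Epcam, Krt19 and Cldn7 fell under the filter on array A, and Krt8, Krt18 and Cldn4 had mean intensities of 8.25, 7.19 and 7.29. Cdh3, or P-cadherin, also an epithelial cadherin, ran from 18 to 26.0 (median 21.5) in Ts1Cje and from 12.4 to 23.9 (median 17.6) in 2N in its brighter probe set. All 6 Ts1Cje samples lay above the 2N median, but 2 of the 2N samples were as high as the Ts1Cje median or higher, and the log2 difference of 0.31 (SE 0.20, limma adjusted p = 0.99) did not pass. Its dimmer probe set, 162097_r_at, was at 0.09 (SE 0.343).

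Cdh15, or M-cadherin, which is known for muscle cells and the cerebellum, was dim in both its probe sets. One, 161366_r_at, ran from 2.32 to 25.9 (median 7.84) in Ts1Cje and from 2.00 to 19.7 (median 13.4) in 2N, and the other, 103213_at, from 1.29 to 10.3 (median 7.43) in Ts1Cje and from 2.67 to 13.4 (median 9.62) in 2N. Samples of 1 genotype spread widely, and the differences of -0.10 and -0.50 had standard errors of 0.651 and 0.501. The summed intensity of 6 skeletal muscle markers ran from 47.7 to 67.1 in Ts1Cje and from 40.3 to 55.4 in 2N.

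Type II cadherins mark groups of neurons in overlapping combinations and help to match them to their partners. On array A 6 of them were tested, 2 above 0 and 4 below, with a median log2 difference of -0.03, and 0 passed. Cdh10 was measured on each design. Its array A probe set ran from 15 to 30.8 (median 19.2) in Ts1Cje and from 18.1 to 26.9 (median 22.0) in 2N, and its brighter array B probe set from 51.3 to 86.1 (median 70.9) in Ts1Cje and from 53.6 to 79.3 (median 65.1) in 2N. The medians were ordered in opposite ways on the arrays, and the differences of -0.14 (SE 0.193) and 0.08 (SE 0.123) were each smaller than their standard errors.

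Cdh6 and Cdh8, both used to outline regions of the developing forebrain, had nearly the same medians in the 2 genotypes. For Cdh6 the 6 samples ran from 12.4 to 22.6 (median 18) in Ts1Cje and from 13.1 to 22.8 (median 18.2) in 2N. For Cdh8 they ran from 9.46 to 16.2 (median 11.4) in Ts1Cje and from 10.1 to 15 (median 11.4) in 2N. Both log2 differences were -0.03, with standard errors of 0.214 and 0.225, and their intervals lay within 1.5-fold.

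Cdh11, a cadherin of mesenchyme and bone that is also found in brain, ran from 6.17 to 14.4 (median 11.6) in Ts1Cje and from 9.16 to 17.9 (median 11.6) in 2N. Its difference of -0.24 had a standard error of 0.273. Cdh9, a synaptic cadherin of the hippocampus, was just above the filter, at 4.41 to 8.62 (median 5.57) in Ts1Cje and 0.858 to 7.99 (median 4.43) in 2N. It had the highest log2 difference of the members on array A, 0.45, with a standard error of 0.473. The filter of 5.11 lay between the means of Cdh9, 5.85 in Ts1Cje and 4.66 in 2N. The probe set thus reached the test through its Ts1Cje values, and its rank is no support for a change. Its lowest 2N value lay under the floor of 1.47. In the 10 fits without a sample that kept it, the difference ran from 0.15 to 0.59.

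Cdh5, or VE-cadherin, which seals the junctions of blood vessels, ran from 18.1 to 28.6 (median 25) in Ts1Cje and from 14.3 to 24.6 (median 21.8) in 2N. The log2 difference was 0.18 (SE 0.187, limma adjusted p = 0.99). Summed over 7 other endothelial markers on array A the intensity ran from 303 to 399 in Ts1Cje and from 311 to 394 in 2N, and of their differences 4 were above 0, 3 below and 0 passed. On array B 3 such markers were tested, 1 above 0 and 2 below, and 0 passed. Flt1, a receptor for vascular growth factor named after its values were seen, was at -1.07 there (SE 0.383, limma adjusted p = 0.996) and at -0.09 on array A (SE 0.311). The part of vessel content in the Cdh5 value was not tested. In whole tissue, fewer cells of a type and less RNA per cell cannot be told apart.

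Among the remaining Cdh genes, Cdh13, or T-cadherin, is held by a lipid anchor in place of a tail inside the cell and is known as a guidance and synaptic molecule of neurons. It had 5 tested probe sets, the most of any member. On array A it ran from 72.1 to 105.5 (median 76.9) in Ts1Cje and from 74.7 to 116 (median 88.6) in 2N. One of the 6 Ts1Cje samples, replicate 1, lay above the 2N median, and the log2 difference was -0.19 (SE 0.12, limma adjusted p = 0.99). The brightest array B probe set, 107622_at, ran from 104 to 124 (median 118) in Ts1Cje and from 91.9 to 135 (median 115) in 2N, and there the difference was 0.05 (SE 0.0958).

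The other array B probe sets of Cdh13 did not pass either. Intensities of 115923_f_at ran from 53.1 to 78.7 (median 66.1) in Ts1Cje and from 56.1 to 76.4 (median 63.5) in 2N, with a difference of 0.01. Those of 115922_i_at ran from 11 to 19.2 (median 14.9) in Ts1Cje and from 10.9 to 15.1 (median 13.7) in 2N, with a difference of 0.17 (SE 0.186). The dimmest, 164646_at, was at -0.06 (SE 0.314). So 2 of the 5 were below 0 and 3 above, and without Ts1Cje replicate 1 the array A probe set was at -0.27, under 0.05 before adjustment (limma adjusted p = 0.98). In the main fit 3.63% of all array A probe sets were under 0.05 before adjustment.

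Cdh17, a cadherin of liver and intestine, was near the filter on array B, from 1.47 to 5.42 (median 3.43) in Ts1Cje and from 2.05 to 7.59 (median 6.63) in 2N. No Ts1Cje sample lay above the 2N median, though the ranges overlapped. Its log2 difference of -0.71 (SE 0.458, limma adjusted p = 0.996) was the largest of the members in size, at an intensity where the interval ran from -1.67 to 0.25. The filter of 3.90 lay between the means of 3.47 in Ts1Cje and 5.71 in 2N. The probe set thus reached the test through its 2N values, and the rank of its difference is no support for a change. Cdh16, a kidney cadherin, was under the filter, at a mean of 2.63.

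**Figure D3:**
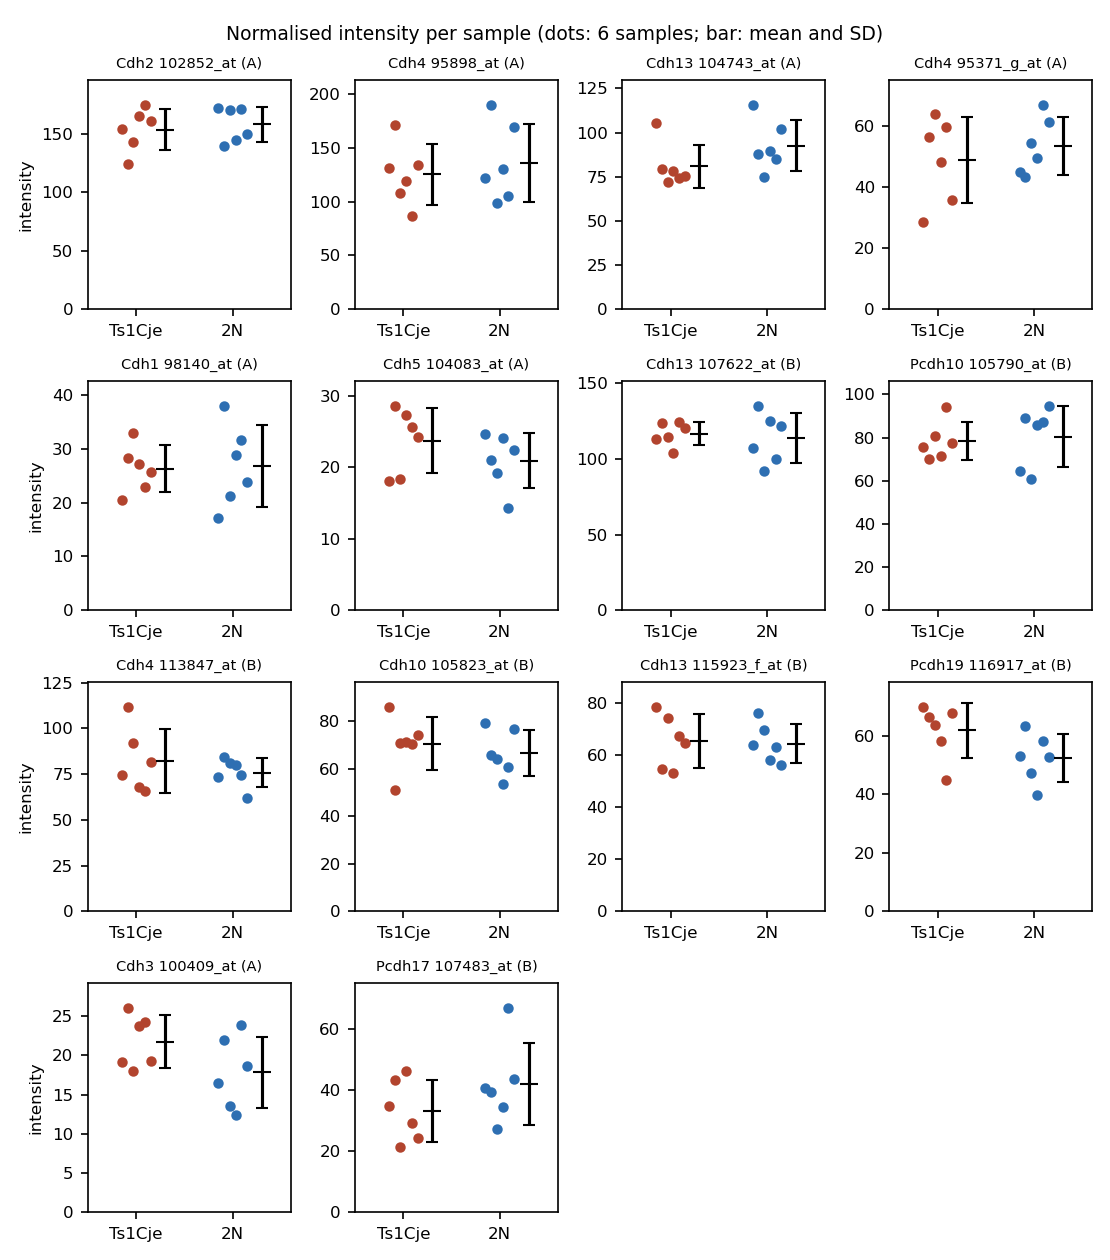
Normalised intensity (y axis, from 0) of each sample for the 6 brightest members of each array and the 2 with the smallest p on each, with Ts1Cje left of 2N, dots in replicate order and the mean and SD beside them. The genotypes overlap in every panel, and for Cdh13 on array A 1 Ts1Cje sample at 105.5 stands above the other 5.

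Delta protocadherins were measured mostly on array B, with 9 tested probe sets of 6 genes, of which 4 were above 0 and 5 below with a median log2 difference of -0.03, and 0 passed. Pcdh19, whose human ortholog is mutated in an epilepsy of girls, had the smallest p of all members. It ran from 44.7 to 69.9 (median 65.1) in Ts1Cje and from 39.8 to 63.2 (median 52.9) in 2N. All Ts1Cje samples but replicate 5 lay above the 2N median. The log2 difference was 0.24 (SE 0.128, limma adjusted p = 0.996), and it was 0.23 among replicates 1 and 2 and 0.24 among replicates 3 to 6. This split of the replicates was found in the data and does not give independent repeats of the difference.

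Pcdh17, which gathers at synapses of cortex and basal ganglia, gave different values in its 2 probe sets. The brighter, 107483_at, ran from 21.3 to 46.2 (median 32.1) in Ts1Cje and from 27.3 to 67.0 (median 40.0) in 2N, and its log2 difference was -0.34 (SE 0.209, limma adjusted p = 0.996). The dimmer, 117096_at, ran from 12 to 22.3 (median 15.7) in Ts1Cje and from 10.5 to 22.1 (median 16.1) in 2N, with a difference of 0.05 (SE 0.208). By the same split, found in the data, the difference of the brighter probe set was -0.04 among replicates 1 and 2 and -0.49 among replicates 3 to 6. The part of the split in this value was not tested.

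Pcdh10, which guides axons through the ventral forebrain, ran from 70.2 to 94.2 (median 76.5) in Ts1Cje and from 60.8 to 94.8 (median 86.5) in 2N in its brightest probe set. The 2N samples fell into 2 low and 4 high values and spanned the whole Ts1Cje range, and the log2 difference was -0.03 (SE 0.117, interval -0.27 to 0.22). A dimmer probe set, 164244_at, ran from 2.81 to 29.5 (median 15.9) in Ts1Cje and from 5.14 to 30.5 (median 19.6) in 2N, with a difference of -0.38 (SE 0.482). The remaining one was under the filter, at a mean of 2.19.

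Pcdh7, an adhesion protein of neurons known in frog for retinal axons, was dim on both arrays. On array B it ran from 7.30 to 15.7 (median 11.4) in Ts1Cje and from 6.65 to 13.5 (median 9.39) in 2N, with a log2 difference of 0.20 (SE 0.243). On array A one probe set was at -0.08 (SE 0.58) and the other under the filter. Pcdh9, a delta protocadherin of cortex and sensory regions, was at 0.20 (SE 0.447), and the 2 probe sets of Pcdh1, a protein also of airway epithelium, at -0.11 and -0.27 (SE 0.466 and 0.606). These intervals each reached 1.5-fold in at least 1 direction, so a change of that size was not excluded.

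Pcdh12, a protocadherin of blood vessels and placenta, ran from 7.90 to 16.2 (median 12.9) in Ts1Cje and from 7.38 to 15.8 (median 12.1) in 2N on array B, with a difference of 0.11 (SE 0.256), and was under the filter on array A. Of the clustered protocadherins with a probe set of their own, Pcdhb22 ran from 10.6 to 35.4 (median 24.9) in Ts1Cje and from 13.3 to 38.7 (median 24.1) in 2N. Its difference was -0.04 (SE 0.286). Pcdhb7 was under the filter, at a mean of 1.92. Each neuron uses few of the clustered genes, so brain RNA averages over many cells that lack a given one. The part of this in the values was not tested.

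The 8 probe sets naming several clustered genes all belong to the alpha cluster, whose proteins share the exons for their tail inside the cell. They are annotated to 14 or 9 Pcdha genes each, share targets and are not independent of one another. An r, i or s before "at" in a name marks a probe set chosen under relaxed design rules, with incomplete probes or with probes that match several transcripts. Of the 8, 7 were tested, 6 were above 0 and 1 below, with a median log2 difference of 0.26, and 0 passed (limma). At an unadjusted p under 0.05 there were 2, 101650_at and 101771_r_at, where 3.63% of all tested array A probe sets were. Their 95% intervals, from 0.05 to 0.47 and from 0.04 to 0.83, excluded 0 but are not adjusted for the number of tests. The other 5 intervals included 0, and the shared direction was not tested.

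The brightest, 101650_at, ran from 370 to 615 (median 464) in Ts1Cje and from 349 to 460 (median 381) in 2N. It lay above the 2N median in 5 of 6 Ts1Cje samples, and its log2 difference was 0.26 (SE 0.0993, limma adjusted p = 0.99). Leaving out each sample in turn gave differences from 0.18 to 0.33, the lowest without Ts1Cje replicate 3. The next brightest, 160610_at, annotated to the same 14 genes, ran from 221 to 283 (median 253) in Ts1Cje and from 221 to 281.5 (median 238) in 2N. Its difference was 0.05 (SE 0.0819), with an interval from -0.12 to 0.22. The other probe set for these genes, 97756_s_at, ran from 44.5 to 66.0 (median 60.6) in Ts1Cje and from 51.5 to 81.9 (median 67.5) in 2N, and was at -0.18 (SE 0.127), with no Ts1Cje sample above the 2N median. Probe sets annotated to the same genes thus lay on both sides of 0.

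Of the 5 probe sets annotated to 9 Pcdha genes, the 4 tested had differences above 0, and the untested 101770_i_at had means of 2.57 in Ts1Cje and 3.64 in 2N. Intensities of 101771_r_at ran from 84.2 to 193 (median 146) in Ts1Cje and from 78.1 to 152.5 (median 97.7) in 2N (log2 difference 0.43, SE 0.186). Those of 101772_r_at ran from 17.6 to 53.7 (median 27.7) in Ts1Cje and from 19.1 to 23.6 (median 20.9) in 2N (0.40, SE 0.229). Among replicates 1 and 2 the differences of these 2 probe sets were 1.07 and 1.08, and among replicates 3 to 6 they were 0.12 and 0.06. That split of the replicates was found in the data, and its part in the result was not tested. For 101773_r_at, from 12.4 to 31.0 (median 20.2) in Ts1Cje and from 4.92 to 27.7 (median 13.9) in 2N, the difference was 0.77 (SE 0.415), and 101769_at was at 0.14 (SE 0.171). Each had an adjusted p of 0.99.

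**Figure D4:**
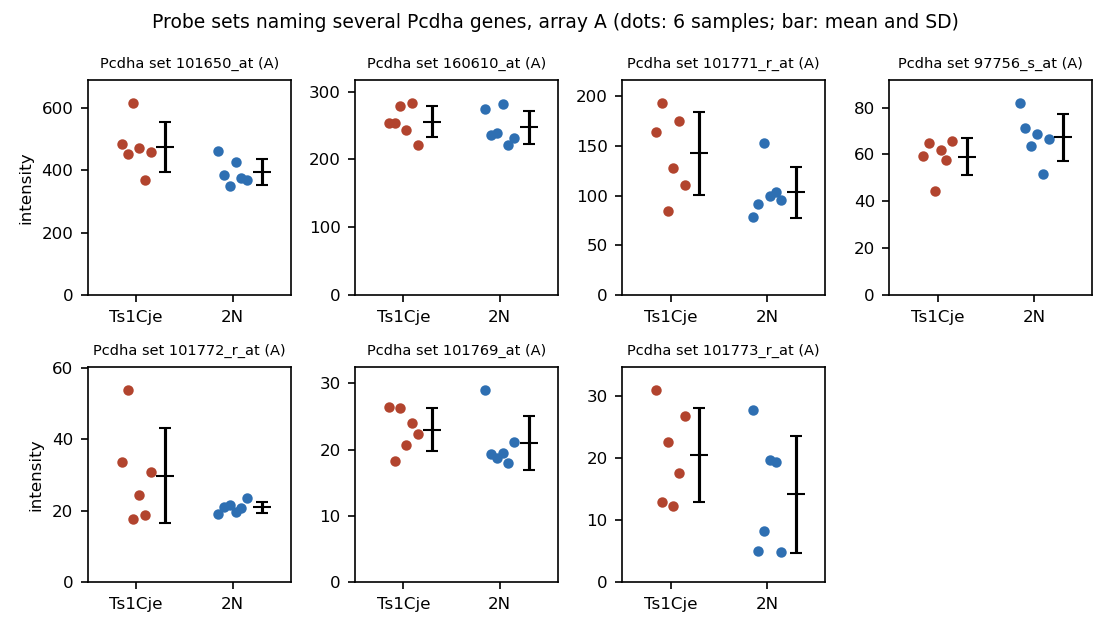
Normalised intensity (y axis, from 0) of each sample on array A for the 7 tested probe sets naming several Pcdha genes, with Ts1Cje left of 2N, dots in replicate order and the mean and SD beside them. The genotypes overlap in all panels, and in 101772_r_at Ts1Cje replicate 2 at 53.7 is the highest.

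None of the 93 Cdh and Pcdh genes in the reference annotation (GRCm38.p6) lies on chromosome 16 or 12, so no member is on the segment carried in an additional copy. Of the 23 measured genes, 8 are on chromosome 8, in the order Cdh8, Cdh11, Cdh5, Cdh16, Cdh3, Cdh1, Cdh13 and Cdh15, and 5 are on chromosome 18. Chromosome 15 holds the neighbouring Cdh6, Cdh9 and Cdh10, and Pcdh17 and Pcdh9 are on chromosome 14. Pcdh19 is on the X chromosome.

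Several probe sets per gene allowed a comparison within 9 genes. For 4 of them, Cdh3, Cdh15, Pcdh1 and Pcdh10, all tested probe sets lay on the same side of 0, and for Cdh4, Cdh10, Cdh13, Pcdh7 and Pcdh17 they lay on both. The arrays carry the same replicate numbers, and the labels do not say if equal numbers are 1 RNA, so the 2 arrays need not be independent.

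Genes that work with cadherins were read from the same fits. Of the catenins and junction partners, 19 were tested on array A (12 above 0, 7 below) and 10 on array B (3 above, 7 below), and 0 passed on either. Ctnnb1, the beta-catenin that links cadherins to the cytoskeleton and also acts in Wnt signalling, had a log2 difference of 0.05 (SE 0.0635). Ctnnd2, the neural delta-catenin, was at -0.01 (SE 0.0811). On array B the brightest were the nectin gene Nectin1, at 0.24 (SE 0.143), and Afdn, which encodes the nectin-binding protein afadin, at -0.02 (SE 0.103). Ctnnd1, or p120-catenin, which keeps cadherins at the cell surface, was at -0.21 (SE 0.0817, limma adjusted p = 0.99). It is named here after its value was seen.

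Other cadherin superfamily genes gave 4 tested genes on array A, 7 on array B and 0 that passed. The brightest on array A were Celsr2, a cadherin of planar cell polarity, at -0.09 (SE 0.167) and Dsg2, a desmosomal cadherin, at 0.03 (SE 0.606). On array B the brightest were Clstn1, a calsyntenin of axonal transport, at -0.05 (SE 0.097) and the giant cadherin gene Fat1 at 0.10 (SE 0.0761).

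Regulators and effectors of the clustered protocadherins include the insulator protein CTCF and cohesin, which join a chosen promoter to its enhancer, and the kinases and actin regulators that act below the membrane. Of these, 13 were tested on array A (7 above 0, 6 below) and 8 on array B (5 above, 3 below), and 0 passed. The brightest on array A were Rac1, an actin-regulating GTPase gene, at -0.03 (SE 0.0792) and Nckap1, of the WAVE actin complex, at 0.05 (SE 0.0581). Cyfip2, of the same complex, was at 0.09 (SE 0.0956) on array B and at -0.06 (SE 0.0989) on array A. On array B the cohesin gene Smc1a was at -0.04 (SE 0.114). Chosen after their values were seen, Ctcf was at 0.04 (SE 0.138) and the cohesin gene Rad21 at -0.22 (SE 0.091, limma adjusted p = 0.99). Other cohesin genes on array A lay on both sides of 0, with Stag2 at 0.27 (SE 0.13), Smc3 at 0.01 (SE 0.13) and Stag1 at -0.16 (SE 0.22). Stag1 was at -0.07 (SE 0.14) on array B.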

How the data were processed

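Linear probe set intensities were deposited by the authors, and the sources used here name no summarising software. Trimmed means (2% off each end) differed between arrays of a design by a factor of up to 2.10 (array A) or 1.86 (array B). Each table was therefore quantile normalised, leaving out 66 control probe sets per array. Values below the 10th percentile (1.47 and 1.13) were raised to it before log2, which understates changes of dim probe sets. The filter kept means from the 25th percentile upward. The kept probe sets were tested by limma 3.58.1 in R 4.3.3 (moderated by eBayes, mean-variance trend), Ts1Cje against 2N without covariates, and p-values were adjusted by Benjamini-Hochberg within each table. The number of arrays limits the precision.

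Gene symbols came from the platform annotation, and all 40 member symbols matched the reference annotation by gene ID. In simulated array A data, 39% of the 100 probe sets given a 1.5-fold change passed and 64% of those given a 2-fold change. In simulated array B data it was 19% and 52%. False calls numbered 6 on array A and 3 on array B. Recovery under an adjusted threshold depends on how many probe sets change, so these shares need not hold for the real tables. Members and lists were chosen with earlier results of these data known. Values by genotype were given for up to 12 members of highest intensity and 5 of smallest p on either array. Of each partner list, genes that passed, or else the 2 brightest, were named. Alternatives changed the normalisation, floor, filter, trend, test, array weights, replicate block, a term for replicates 1 and 2, the threshold and the summary per gene, and left out each sample.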

Additional observations from a re-analysis of the deposited data

Results flagged for a closer look

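Both genotypes of the 34 tested members and of the 7 tested Pcdha probe sets, 82 groups of 6 samples in all, were searched for a sample far from the other 5. There were 6 such groups, where chance flags about 5%, or 4.1. For Cdh13 on array A, Ts1Cje replicate 1 was at 105, with the nearest other sample at 79.3, and without it the log2 difference was -0.27. For Cdh15 probe set 103213_at, Ts1Cje replicate 5 was low at 1.29, with the nearest at 5.58, and 2N replicate 2 was low at 2.68, with the nearest at 9.41. The difference of that probe set was -0.10 without the first and -0.84 without the second. Pcdh9 had a low value of 3.42 in Ts1Cje replicate 6, with the nearest at 9.99, and its difference was 0.53 without it. Of the Pcdha probe sets, 97756_s_at was low in Ts1Cje replicate 3 at 44.5 (nearest 57.6, difference -0.10 without it), and 101769_at was high in 2N replicate 1 at 28.9 (nearest 21.2, difference 0.24 without it).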

How the results depend on the processing

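No tested member passed under any alternative or with any sample left out (0 on each array, limma or the plain test). The lowest adjusted p was 0.89 over the other alternatives and 0.96 over the fits without a sample. The members' median log2 difference lay between -0.10 and 0.0043 (array A) or 0.0091 and 0.08 (array B) over the alternatives. Without a sample it lay between -0.12 and 0.0094 (array A) or -0.0061 and 0.07 (array B). Differences changed sign in at least 1 of the other alternatives for 7 of the 34 members, all uncalled, and in at least 1 fit without a sample for 18. Counts over all probe sets moved more. On array A 9 passed, but 0 without normalisation between arrays and 2 without the mean-variance trend. On array B 6 passed, but 0 without normalisation, 0 without the trend, 0 with the plain test and 2 without a filter on dim probe sets. Leaving out each sample gave 6 to 11 on array A and 1 to 6 on array B, where 1 remained without Ts1Cje replicate 1, Ts1Cje replicate 2 or 2N replicate 5. The causes were not tested. With the replicate number as a block the counts were 9 and 6, and 0 members passed. Same-numbered samples correlated between 0.0130 and 0.109 in their deviations, so all these correlations were low but above 0. Ts1Cje replicates 2, 3, 5 and 6 on array A correlated best with the 2N sample of their own number. On array B replicates 1, 2, 3 and 6 did so. The main fits did not pair samples by number, and whether the numbers mark pairs was not tested. Before adjustment a member fell under 0.05 with the block (Cdh13 on array A) and in 6 of the 24 fits without a sample. These were Cdh13 (array A) without Ts1Cje replicate 1, Pcdh19 without Ts1Cje replicate 5 or 2N replicate 2, Pcdh17 without Ts1Cje replicate 4 or 2N replicate 3, and Cdh17 without 2N replicate 4. No fit without a sample had more than 1 such member. In the main fits 3.63% (array A) and 4.24% (array B) of all probe sets were under 0.05 before adjustment. Such shares for the other fits are not given here. Dim members are limited most, and 9 of the 34 intervals reached a 2-fold change. These were mostly of dim members. Pcdh10 probe set 164244_at was among them, though its mean of 16.8 was above the array B median of 16.1 for tested probe sets.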
